A study of Mus musculus with 4 samples.

Results

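Small nucleolar RNAs are short noncoding RNAs that mostly guide chemical modification of ribosomal RNA, and they were described here in 4 mouse mammary tumour libraries. The members were every row of the deposited table whose Ensembl identifier belongs, in the GENCODE M21 annotation of GRCm38, to a gene of biotype snoRNA with a symbol starting with Snord or Snora. There were 140 such rows among 51826, of which 98 were Snord and 42 were Snora. Membership used annotation alone, but the class was selected on the HET and WT levels of some members, which earlier results of these data had listed as lower in HET. The differences between genotypes given for the members are therefore descriptions of these 4 libraries.

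The study compared 2 libraries from C3-T+ Elf5+/- tumours (HET) with 2 from C3-T+ Elf5+/+ tumours (WT), so the C3-T transgene was shared by both groups. Elf5 is an ETS family regulator of milk-producing alveolar cells and their progenitors, and heterozygous mice carry a single intact copy. The labels give no age, strain or driver of the transgene. After enzymatic digestion the tumours were sorted with antibodies to leukocyte, endothelial and erythroid surface proteins, and total RNA was extracted. Both HET titles carry the same leading number, so these libraries may be a pair of tumours from a single animal, while the WT titles carry different ones. Nothing says that the libraries come from separate animals, so p-values reflect the spread between libraries and no more. Totals lay between 12695132 and 15307939 estimated counts. The library labelled WT 2 stood apart on the first principal component and had no count for 44.5% of rows, against 29.9% to 31.3% in the others. Levels are CPM, counts scaled to library size with the trimmed mean of M values (TMM). Elf5 stood at 5.39 and 10.6 CPM in HET and at 35.6 and 4.70 CPM in WT, so Elf5 RNA did not separate the genotypes and was lowest in the library labelled WT 2. Values of WT 2 are for that reason given under its label, and the main sums are also given against WT 1 alone.

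Box C/D small nucleolar RNAs (Snord genes in mouse) carry a box C near their start and a box D near their end, and bind fibrillarin, NOP56, NOP58 and SNU13. The bases just before box D, or before an inner copy of it, pair with ribosomal RNA and direct ribose methylation there. Box H/ACA small nucleolar RNAs (Snora genes) end in an ACA box, bind dyskerin, GAR1, NHP2 and NOP10, and direct conversion of uridine to pseudouridine. In mammals most of them are cut out of introns of host genes, many of which encode ribosomal proteins or are noncoding host transcripts, and are then trimmed by exonucleases. A few act in cleavage of the ribosomal RNA precursor rather than in its modification.

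Sequences are from the GENCODE M21 transcripts (GRCm38), written 5′ to 3′ with box C (TGATGA) and box D (CTGA) in capitals for Snord and the ACA box in capitals for Snora. The letters TGATGA lay before the midpoint in 73 of 98 Snord sequences (74.5%) and CTGA after it in 97 of 98. The letters ACA lay 3 bases before the end of 35 of 42 Snora sequences (83.3%). Both motifs were read on the transcribed strand, and a match is a description of letters. The first pair, Snord15a and Snord15b, had the highest level of the class. The next 3 lie in introns of Rpl13a and were among the members with the widest gap between genotypes. Snord87 had one of the wider gaps between genotypes, and Snord17, the longest member, differed little. Snora21 had the highest level of the Snora group.
Snord15a (chr7:99482785-99482932, minus strand): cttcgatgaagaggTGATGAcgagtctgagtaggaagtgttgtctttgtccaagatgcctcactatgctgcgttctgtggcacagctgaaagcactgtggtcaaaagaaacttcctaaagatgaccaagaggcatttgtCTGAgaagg
Snord15b (chr7:99479563-99479707, minus strand): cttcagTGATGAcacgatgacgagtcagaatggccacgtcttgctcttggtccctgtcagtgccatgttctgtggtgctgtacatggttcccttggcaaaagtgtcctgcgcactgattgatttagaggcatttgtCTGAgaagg
Snord33 (chr7:45126864-45126947, minus strand): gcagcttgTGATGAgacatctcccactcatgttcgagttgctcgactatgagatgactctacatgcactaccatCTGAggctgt
Snord34 (chr7:45126601-45126670, minus strand): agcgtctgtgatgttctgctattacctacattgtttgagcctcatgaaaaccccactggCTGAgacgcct
Snord32a (chr7:45127382-45127464, minus strand): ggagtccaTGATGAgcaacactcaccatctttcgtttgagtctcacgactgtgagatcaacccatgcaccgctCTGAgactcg
Snord87 (chr1:9942463-9942549, minus strand): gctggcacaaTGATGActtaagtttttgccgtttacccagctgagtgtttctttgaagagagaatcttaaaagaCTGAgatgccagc
Snord17 (chr2:144265979-144266216, minus strand): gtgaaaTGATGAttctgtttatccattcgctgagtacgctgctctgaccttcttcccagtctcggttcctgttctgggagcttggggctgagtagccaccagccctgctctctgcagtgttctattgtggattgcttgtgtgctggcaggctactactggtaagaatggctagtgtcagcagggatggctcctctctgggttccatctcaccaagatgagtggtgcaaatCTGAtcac
Snora21 (chr11:97781639-97781775, minus strand): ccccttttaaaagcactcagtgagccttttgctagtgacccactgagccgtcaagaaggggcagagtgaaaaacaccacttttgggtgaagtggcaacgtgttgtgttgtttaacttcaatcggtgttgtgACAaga
Over an alignment from end to end, Snord15a and Snord15b were identical at 66.0% of columns, and their last 21 bases, agaggcatttgtCTGAgaagg, were the same.

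As a class the small nucleolar RNAs were lower in HET. Summed over all 140 members, with no filter, they came to 171.8 and 226.6 CPM for HET 1 and HET 2, against 567.5 CPM for WT 1 and 767.9 CPM for WT 2. The means were 199.2 ± 38.8 CPM in HET and 667.7 ± 141.7 CPM in WT (SD, n = 2 each), which is 3.35-fold higher in WT. Against WT 1 alone the ratio was 2.85. The class took 0.0181% and 0.0241% of estimated counts in HET and 0.0542% and 0.0704% in WT. Its summed level thus rests on 2646 to 10781 counts per library, and values of single members rest on fewer. The order of the libraries was the same within each structural class. Snord rows summed to 139 and 176.6 CPM in HET and 492.7 and 681.4 CPM in WT, and Snora rows to 32.7 and 50.0 CPM in HET and 74.8 and 86.5 CPM in WT. The ratio of WT to HET was 3.72 for Snord and 1.95 for Snora, and 3.12 and 1.81 against WT 1 alone. Snord15a and Snord15b held 376.1 of the 492.7 CPM of Snord rows in WT 1. Without that pair, the ratio of WT 1 to HET over all other members of both classes was 2.04. The difference between the structural classes was not tested.

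**Figure D1:**
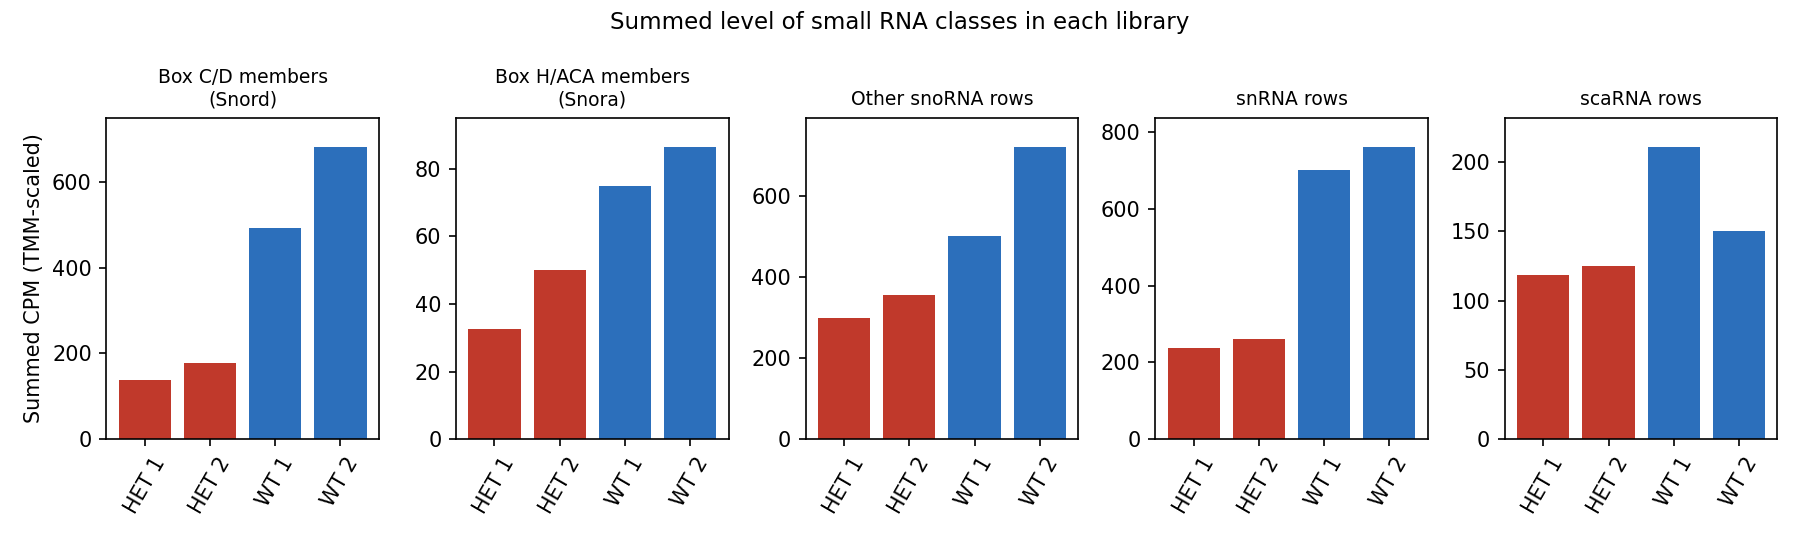
Summed level (CPM, TMM-scaled, linear axis from 0) of box C/D members, box H/ACA members, other rows of biotype snoRNA, small nuclear RNA (snRNA) rows and small Cajal body RNA (scaRNA) rows in each library, HET in red and WT in blue. Both HET bars are below both WT bars in each panel, with Snord at 139 and 176.6 CPM in HET and 492.7 and 681.4 CPM in WT.

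Of the 140 members, 110 had a count in some library and 53 passed the filter on low counts. The filter asks for 0.721 CPM in 2 libraries, and 14 of the 53 reached it through the WT libraries alone and 0 through the HET libraries alone, so the members tested are not a neutral sample of the class. No member passed the edgeR quasi-likelihood test at an adjusted p under 0.05, and neither did any of the 21607 genes tested. Adjusted p-values of the members lay between 0.986 and 0.991. At an unadjusted p under 0.05, 22 of 53 members were lower in HET, against 1.83% of all genes tested, and 0 were higher, against 1.95%. Limma-voom passed 0 members and DESeq2 passed 9, all lower (0.421% of all genes tested were lower by DESeq2). With no filter beyond 1 count, edgeR passed 14 members at an adjusted p under 0.05, all lower, against 0.443% of rows lower and 0.309% higher. Without WT 1 it passed 13, all lower, against 0.759% of genes, and without WT 2 it passed 0, against 0.037%. Without WT 2, 15 members were lower at an unadjusted p under 0.05, against 2.47% of genes. The log2 fold change was below 0 for 49 of 53 members, against 47.3% of all genes tested. The median over the 53 was -1.98, and -1.24 without WT 2, against 0.04 for all genes tested. Without any filter, both HET libraries were below both WT libraries for 60 of the 110 detected members (10.9% of all rows with a count) and above both for 5 (18.5% of all rows with a count). Both HET libraries were below WT 1 for 70 of 110 (33.4% of all rows with a count) and below WT 2 for 77 of 110 (23.2%). The 5 members above both, named after their values were seen, were Snora3, Snora28, Snora41, Snora75 and Snord91a, each with 13 counts or fewer in every library.

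The pair in Rps3 held the largest part of the summed level. Snord15a and Snord15b are known in human cells to guide methylation of large-subunit ribosomal RNA, and Rps3 encodes a protein of the small subunit. Snord15b stood at 58.2 and 63.0 CPM in HET 1 and HET 2 and at 236.5 and 170.1 CPM in WT 1 and WT 2. Snord15a stood at 32.3 and 57.1 CPM in HET and at 139.6 and 227.7 CPM in WT. For each of them the higher HET library lay below the lower WT library, and the WT libraries took opposite orders for the 2 members. The log2 fold changes were -1.75 ± 0.31 for Snord15b and -2.04 ± 0.43 for Snord15a (SE). Together they held 90.5 and 120.1 CPM in HET and 376.1 and 397.8 CPM in WT. The other 138 members summed to 81.3 and 106.5 CPM in HET and 191.4 and 370.1 CPM in WT, so the order of the genotypes did not depend on this pair. Per kilobase of annotated length, Snord15b averaged 909.9 CPM and Snord15a 771.6 CPM over the 4 libraries, and the next member, Snord21, averaged 151.5 CPM.

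Introns of Rpl13a, which encodes a protein of the large subunit, hold 4 members, known from human cells to guide methylation at sites in both ribosomal subunits. Snord33 stood at 0.714 and 0.816 CPM in HET 1 and HET 2 and at 6.76 and 10.2 CPM in WT 1 and WT 2, from 11 and 11 counts in HET and 85 and 143 in WT. Its log2 fold change was -3.46 ± 0.58 (SE), with an unadjusted p in edgeR of 0.000991, the smallest of the class. Snord34 stood at 0.260 and 0.594 CPM in HET and at 1.67 and 15.6 CPM in WT, and Snord32a at 0.454 and 0.890 CPM in HET and at 1.67 and 7.05 CPM in WT. Those 3 members separated the genotypes, although most of the WT level of Snord34 and Snord32a lay in WT 2. Snord35a, at 0.454 and 2.23 CPM in HET and 1.75 and 5.27 CPM in WT, overlapped between genotypes. Rpl13a itself stood at 503.1 and 700.3 CPM in HET and 684.1 and 663 CPM in WT, a log2 fold change of -0.16 ± 0.33 (SE).

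**Figure D2:**
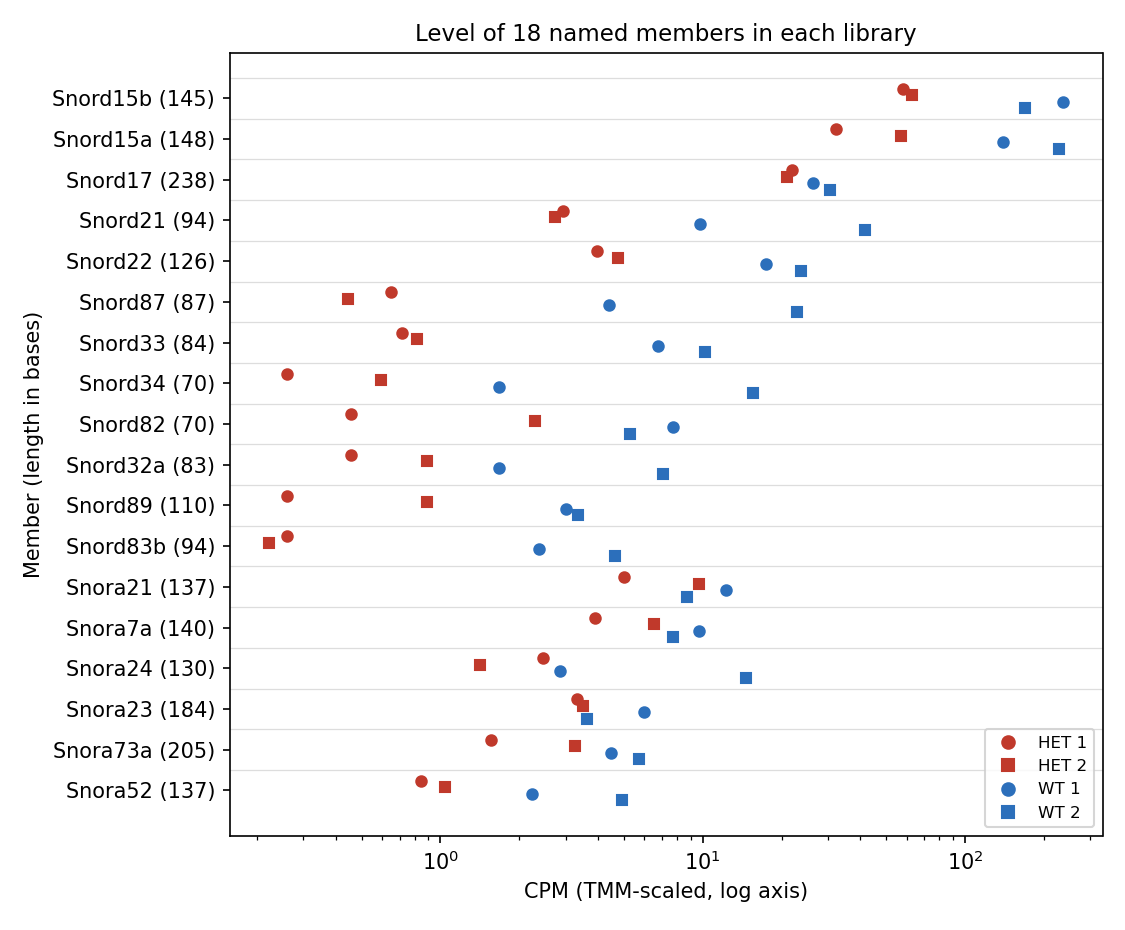
Level (CPM, TMM-scaled, log axis) of 18 members in HET 1, HET 2, WT 1 and WT 2, with annotated length in bases after each symbol, Snord above Snora, each sorted by mean level. Most Snord members other than Snord17 show wide gaps between red HET and blue WT points, as for Snord33 at 0.714 and 0.816 CPM in HET and 6.76 and 10.2 CPM in WT, whereas HET and WT points of Snora21 overlap. Some members shown were chosen for a small p in the lower direction with groups that do not overlap. Their wide gaps follow in part from that choice, whereas others were chosen by level.

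Further Snord members at the lower end lay in other ribosomal protein genes, in noncoding host genes and in other protein-coding genes. Snord22, in the noncoding host gene Snhg1, stood at 3.96 and 4.75 CPM in HET 1 and HET 2 and at 17.5 and 23.7 CPM in WT 1 and WT 2 (log2 fold change -2.24 ± 0.42, SE). Snord21, in Rpl5, stood at 2.92 and 2.75 CPM in HET and 9.78 and 41.5 CPM in WT. Snord87, in the noncoding host gene Snhg6, stood at 0.649 and 0.445 CPM in HET and 4.38 and 22.9 CPM in WT (log2 fold change -4.61 ± 0.95, SE). The groups did not overlap for these 3 members, and for Snord21 and Snord87 WT 2 was several times above WT 1. Snord83b, in Rpl3, stood at 0.260 and 0.223 CPM in HET and 2.39 and 4.63 CPM in WT. Snord82, in the gene of the nucleolar protein nucleolin (Ncl), stood at 0.454 and 2.30 CPM in HET and 7.72 and 5.27 CPM in WT. Snord89, in the noncoding gene Gm15832, stood at 0.260 and 0.890 CPM in HET and 3.02 and 3.35 CPM in WT. These low levels correspond to 3 to 38 counts per library for Snord83b and Snord89 in HET and WT 1, and all 3 members separated the genotypes. Snord80, in the growth-arrest host gene Gas5, had 0 and 0 counts in HET and 14 and 20 in WT, at least 12.3-fold lower in HET against a floor of 3 counts over the HET group. A second Snord80 row lies within the same bases, with 0 and 2 counts in HET and 0 and 0 in WT. The counts of Snord80 and this bound are therefore uncertain. Snord47, also in Gas5, stood at 0.260 and 0.297 CPM in HET and 1.75 and 2.21 CPM in WT, while Snord78 there had no count. Snord22 was the only member placed in Snhg1, and no member was placed in the imprinted noncoding gene Rian.

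Some host genes hold members of both structural classes, and their members could be set side by side. In Ncl they took opposite orders. Snord82 had 7 and 31 counts in HET and 97 and 74 in WT, and Snora75 had 7 and 7 in HET and 5 and 2 in WT. Rps12, which encodes a small-subunit protein, holds Snord100, at 0.065 and 0.297 CPM in HET 1 and HET 2 and 1.35 and 4.91 CPM in WT 1 and WT 2, and Snora33, at 0 and 0.074 CPM in HET and 2.15 and 0.997 CPM in WT. Snora33 thus had 0 and 1 counts in HET against 27 and 14 in WT, and the WT order of these neighbours was opposite. Rps12 itself was at 9.22 and 23.3 CPM in HET and 44.8 and 20.7 CPM in WT, with HET 2 inside the WT range. The 5 members placed in the noncoding host gene Snhg12 summed to 1.82 and 3.34 CPM in HET and 6.76 and 10.1 CPM in WT, and Snhg12 stood at 10.7 and 12.1 CPM in HET and 14.2 and 9.40 CPM in WT. Among them, the Snora16a rows were each listed at 0 in a different HET library, with 16 and 0 counts in HET for one row and 0 and 14 for the other, so the division of reads between these rows is uncertain. Snord12, in the noncoding host gene Zfas1, had 3 and 1 counts in HET and 23 and 64 in WT. Snora62, in the small-subunit protein gene Rpsa, stood at 0.325 and 0.594 CPM in HET and 3.10 and 3.42 CPM in WT, one of the few Snora members with a gap as wide as in Snord.

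Snord17, in an intron of Snx5, is the longest member at 238 bases and guides methylation of large-subunit ribosomal RNA in human cells. It stood at 21.9 and 21.0 CPM in HET 1 and HET 2 and at 26.4 and 30.7 CPM in WT 1 and WT 2. The groups did not overlap, but the log2 fold change was -0.41 ± 0.30 (SE), far closer to 0 than that of the other abundant Snord members.

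The Snora members were nearer to equal between genotypes. Snora21, in Rpl23 and known in human cells to direct pseudouridylation of large-subunit ribosomal RNA, stood at 4.998 and 9.65 CPM in HET 1 and HET 2 and at 12.2 and 8.69 CPM in WT 1 and WT 2. Snora7a, in Rpl32, stood at 3.90 and 6.53 CPM in HET and at 9.71 and 7.69 CPM in WT. Snora23, in the importin gene Ipo7, stood at 3.31 and 3.49 CPM in HET and 5.97 and 3.63 CPM in WT. HET 2 lay within the WT range for Snora21 alone, and the log2 fold changes of these 3 members were -0.52 ± 0.51, -0.74 ± 0.50 and -0.50 ± 0.55 (SE). Snora24, in Snhg8, stood at 2.47 and 1.41 CPM in HET and at 2.86 and 14.6 CPM in WT, so its log2 fold change of -2.17 ± 0.87 (SE) came mainly from WT 2. Snora52, in Rplp2, stood at 0.844 and 1.04 CPM in HET and at 2.23 and 4.91 CPM in WT. Of the 23 Snora members tested, 22 had a log2 fold change below 0 and 4 were lower at an unadjusted p under 0.05. Of the 30 Snord members 27 and 18 were. Over all genes tested in edgeR, 47.3% were below 0 and 1.83% were lower at that threshold. Of the 53 members tested, 14 passed the filter through the WT libraries alone. The medians were -1.31 for Snora and -2.24 for Snord.

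Some further members are known for roles other than guiding a single modification, or have no host gene. Snora73a, which is required for maturation of small-subunit ribosomal RNA, stood at 1.56 and 3.27 CPM in HET 1 and HET 2 and at 4.46 and 5.70 CPM in WT 1 and WT 2 (log2 fold change -1.07 ± 0.61, SE). It shares 96.6% of its aligned bases with Snora73b, so counts of that pair are uncertain. Snord118, transcribed from a gene of its own and needed in frogs for maturation of large-subunit ribosomal RNA, stood at 0.454 and 2.52 CPM in HET and at 1.35 and 0.926 CPM in WT. Its groups overlapped. Snord13, also without a host and needed in human cells for acetylation of small-subunit ribosomal RNA, stood at 0.779 and 2.38 CPM in HET and at 4.30 and 6.62 CPM in WT. The 3 rows of the Snord14 family in the heat shock gene Hspa8, whose yeast relative is essential for maturation of small-subunit ribosomal RNA, summed to 3.25 and 3.26 CPM in HET, 2.47 in WT 1 and 18.9 in WT 2. WT 1 lay below both HET libraries for this summed level. Snord14c and Snord14d are identical at 97.7% of aligned bases.

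The imprinted Snord116 family, expressed from the paternal chromosome in brain, had no counts under its own name. All 17 of its rows had 0 counts in every library, which allows up to 3 counts per row and library. Each of these rows had 61 to 69 near copies among other small RNA rows, a number that includes the other rows of the family. For each row a near copy also lay in an annotated transcript of Snhg14. Reads of the family could have been assigned to that transcript or to the small RNA copies outside the family. These zeros therefore do not show that the family was absent. Its host Snhg14 was present, at 125.2 and 127.5 CPM in HET 1 and HET 2 and 86.4 and 59.3 CPM in WT 1 and WT 2, the opposite order to the class. These 17 rows were among the 30 members with no count anywhere.

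Host genes lay closer to equal between genotypes than the RNAs within them. A host was taken as the smallest named gene whose span holds the member on the same strand, and 132 of 140 members lay in an intron of at least 1 host transcript. For 47 tested members the host was tested too. The median log2 fold change of these members was -2.04, against -0.17 over their 35 hosts, and 44 of 47 members lay below their host. This is a description, since the class was taken up for its low HET levels and some members passed the filter through WT alone, while the hosts were not chosen in that way. Among the hosts, 1 was lower at an unadjusted p under 0.05 and 0 were higher, against 1.83% and 1.95% of all genes tested. That host was Rpl5, at 18.4 and 34.1 CPM in HET 1 and HET 2 and 48.4 and 62.7 CPM in WT 1 and WT 2. Rps3, which holds the Snord15 pair, stood at 295.5 and 550.4 CPM in HET and 784.7 and 513.2 CPM in WT, with HET 2 inside the WT range. Snhg6 stood at 5.84 and 10.4 CPM in HET and 15.4 and 4.49 CPM in WT, and here WT 2 was the lowest library although its Snord87 was the highest. Gas5 stood at 71.1 and 121 CPM in HET and 151.9 and 64.5 CPM in WT. Across the 46 member and host pairs with counts in both genotypes, Pearson's r of the log2 fold changes was 0.35 (Spearman's rho 0.32), as a description over pairs that share libraries and sometimes hosts. By type of host, members in ribosomal protein genes summed to 112.8 and 151.8 CPM in HET and 439 and 536.3 CPM in WT. Members in Snhg genes and similar noncoding hosts summed to 13.2 and 18.6 CPM in HET and 47.0 and 96.1 CPM in WT. Members in other protein-coding genes summed to 40.0 and 42.2 CPM in HET and 59.1 and 99 CPM in WT, the smallest gap of these 3 host types.

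**Figure D3:**
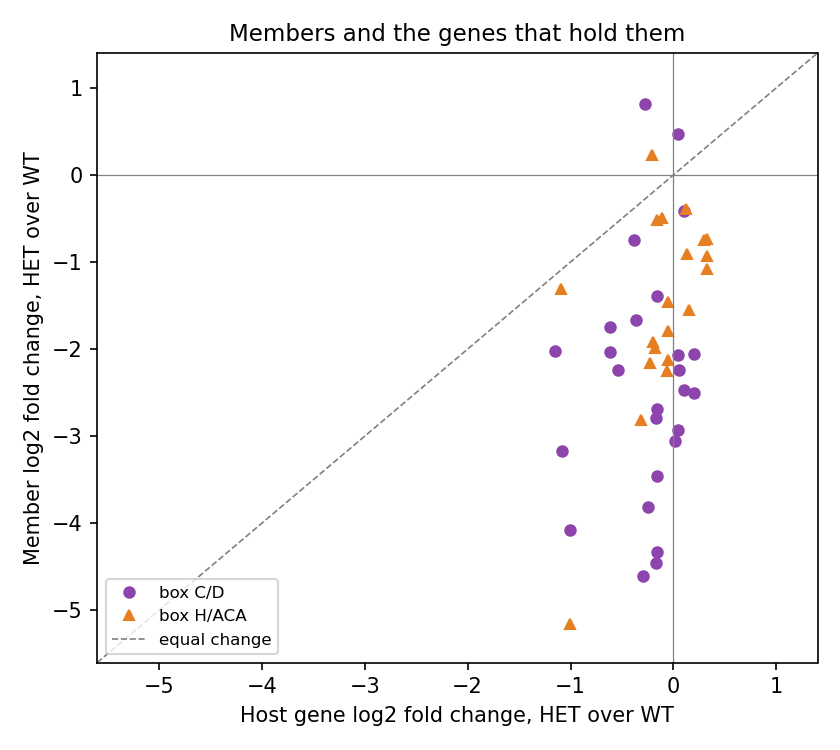
Log2 fold change (HET over WT) of each member, vertical axis, against that of its host gene, horizontal axis, for 46 pairs tested with counts in both genotypes; the dashed line marks equal change and circles and triangles mark Snord and Snora. Host values lie between -1.15 and 0.33 while most members lie below -1.15, so nearly all points lie below the dashed line.

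Reads of these RNAs can be shared with other rows of the table. For 73 members at least 90% of the sequence, at 95% identity or more, was also found in a longer annotated transcript and 46 had such a copy in another small RNA gene. The 56 members with neither summed to 74.5 and 107.1 CPM in HET 1 and HET 2 and to 226.8 and 396.1 CPM in WT 1 and WT 2. The remaining 84 summed to 97.3 and 119.5 CPM in HET and 340.7 and 371.7 CPM in WT. Snord15a had neither kind of copy, and the sequence of Snord15b also lay in an Rps3 transcript. How reads were divided between such copies was not tested. Of the 23 members tested that have neither kind of copy 11 were lower at an unadjusted p under 0.05, against 1.83% of all genes tested.

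Length moved with the size of the difference, and less so without WT 2. Members under 100 bases, all of them Snord, summed to 19.8 and 24.7 CPM in HET 1 and HET 2, 62.9 CPM in WT 1 and 210.4 CPM in WT 2. Those from 100 to under 140 bases summed to 25.1 and 36.5 CPM in HET and 66.9 and 97.7 CPM in WT. Those of 140 bases or more summed to 126.9 and 165.4 CPM in HET and 437.7 and 459.8 CPM in WT. The ratio of WT 2 to WT 1 was thus 3.34, 1.46 and 1.05 from the shortest to the longest members. The ratio of WT 1 to HET was 2.83, 2.17 and 3.0. Most of the sum at 140 bases or more was the Snord15 pair. That pair held 90.5 and 120.1 CPM in HET and 376.1 and 397.8 CPM in WT. Snora members of that length had a ratio of WT 1 to HET of 1.81. Across 51 tested members with counts in WT 1 and in HET, Pearson's r between length and log2 fold change was 0.51 with all libraries and 0.21 without WT 2, as a description across members that share the same 4 libraries. Length and structural class go together, and within class, with all libraries, r was 0.29 (rho 0.13) over 29 Snord and 0.40 (rho 0.45) over 23 Snora. Over the 25 such members with a mean CPM of at least 2, r with all libraries was 0.733 (rho 0.725). The part of length in the difference between genotypes was not tested.

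**Figure D4:**
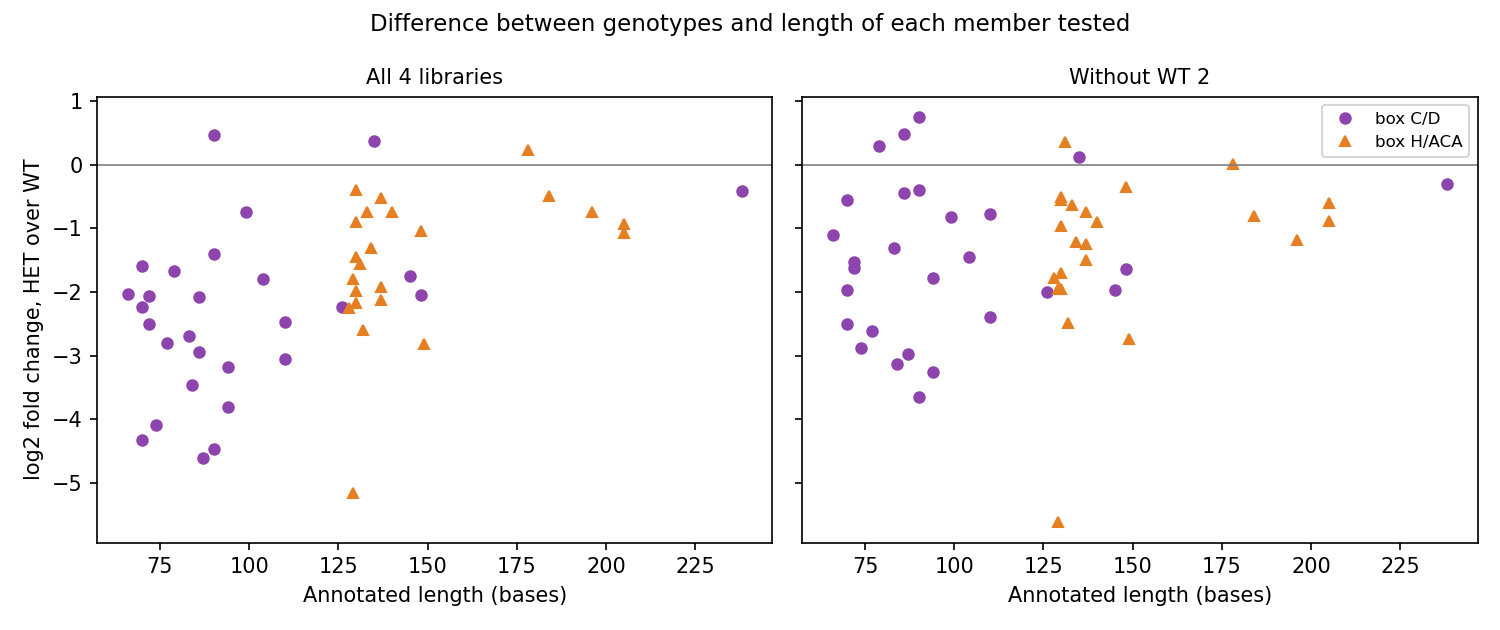
Log2 fold change (HET over WT) against annotated length in bases for 51 members tested with counts in WT 1 and in HET, with all 4 libraries on the left and without WT 2 on the right; circles are Snord and triangles Snora. The shortest members lie lowest on the left, where r was 0.51, and this slope is weaker on the right, where r was 0.21, although most points stay below 0.

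The genes that build small nucleolar ribonucleoproteins were measured in the same libraries. None of the 8 core protein genes was lower or higher at an unadjusted p under 0.05, and all overlapped between genotypes. Over all genes tested in edgeR, 1.83% were lower and 1.95% higher at that threshold. Few or no calls are therefore usual in lists this short, here and below. Fbl, which encodes the methyltransferase fibrillarin, stood at 26.6 and 49.3 CPM in HET 1 and HET 2 and at 69.0 and 32.3 CPM in WT 1 and WT 2. Nop58, a scaffold of box C/D particles, stood at 120 and 201.1 CPM in HET and 232.7 and 110 CPM in WT. Dkc1, which encodes the pseudouridine synthase dyskerin, stood at 41.5 and 72.3 CPM in HET and 56.8 and 28.6 CPM in WT, with a log2 fold change of 0.41 ± 0.45 (SE). In the remaining core genes, as in Fbl and Nop58, WT 1 was the highest library and HET 1 the lowest or next to lowest. Of 15 assembly factors and 14 trimming and decay genes tested, 0 were lower and 0 higher at an unadjusted p under 0.05, with medians of -0.10 and -0.18. Those of smallest p were Znhit6, a box C/D assembly factor, at 16.3 and 16.9 CPM in HET and 25.1 and 23.7 CPM in WT, and the exosome subunit gene Exosc8, at 35.2 and 32.4 CPM in HET and 54.8 and 41.0 CPM in WT. Parn, a deadenylase that trims the ends of box H/ACA RNAs in human cells, stood at 33.5 and 32.2 CPM in HET and 37.5 and 58.0 CPM in WT. Of 19 noncoding host genes on the list of hosts, 1 was higher (Snhg14) and 0 lower. Lists of small-subunit assembly factors (18 tested, median -0.21, with Utp20 at 59.3 and 70.7 CPM in HET and 100.3 and 95.5 CPM in WT) and of RNA polymerase I genes (12 tested, median -0.23) had 0 members at that threshold.

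**Figure D5:**
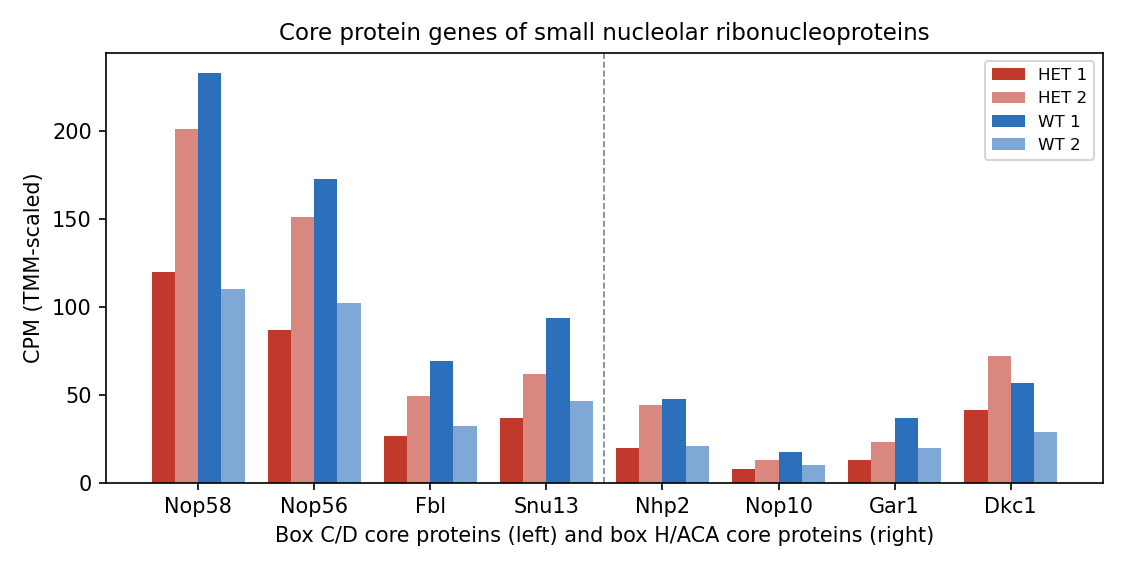
Level (CPM, TMM-scaled, linear axis from 0) of the core protein genes of box C/D particles, left of the dashed line, and of box H/ACA particles, right of it, in HET 1, HET 2, WT 1 and WT 2. HET and WT bars overlap for each gene, as for Fbl at 26.6 and 49.3 CPM in HET and 69.0 and 32.3 CPM in WT.

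Summed levels of some other classes of short noncoding RNA were lower in HET too. The 1367 other rows of biotype snoRNA summed to 299.6 and 355.9 CPM in HET 1 and HET 2 and to 502 and 722.8 CPM in WT 1 and WT 2, with 22 of 57 tested lower and 0 higher at an unadjusted p under 0.05. Small nuclear RNA rows, the RNAs of the spliceosome, summed to 238.2 and 260.3 CPM in HET and to 700.7 and 762.5 CPM in WT, with 21 of 31 tested lower and 2 higher at an unadjusted p under 0.05, against 1.83% and 1.95% of all genes tested. Small Cajal body RNAs, which guide modification of small nuclear RNAs, summed to 118.4 and 125.2 CPM in HET and 211 and 150.1 CPM in WT, with 3 of 12 lower and 0 higher. Many of these rows are near copies of each other, so their counts are not separate measurements. For mitochondrial transfer RNAs the summed levels were 94.2 and 226.7 CPM in HET and 309.4 and 324 CPM in WT, with 2 of 22 lower and 0 higher. MicroRNA rows summed to 30460 and 21040 CPM in HET and 36540 and 38410 CPM in WT, so both HET sums were below both WT sums. Of 89 microRNA rows tested, however, 2 were lower and 2 higher, with a median log2 fold change of 0.54. Rows of biotype misc_RNA summed to 25900 and 18770 CPM in HET and 20350 and 36760 CPM in WT, which overlapped. Of 53 such rows tested 4 were lower and 0 higher, with a median of 0.15.

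Markers of several cell types differed between the libraries as well. In bulk RNA, fewer cells of a type and less RNA per cell cannot be told apart. The tumour epithelium list, with Epcam and keratins, summed to 2253 and 2242 CPM in HET 1 and HET 2 and 3287 and 3050 CPM in WT 1 and WT 2, with 6 of 8 markers below 0 in log2 fold change and 0 at an unadjusted p under 0.05. Fibroblast markers were at 4584 and 5690 CPM in HET and 7594 and 23550 CPM in WT. In log2 fold change 8 of 8 were below 0, against 47.3% of all genes tested. At an unadjusted p under 0.05 in edgeR, 4 of 8 were lower, against 1.83%. Leukocyte markers summed to 412.3 and 300.2 CPM in HET and 319.1 and 134.9 CPM in WT, and macrophage markers to 814.2 and 506.6 CPM in HET and 765.7 and 33.1 CPM in WT. Of these, 1 of 8 leukocyte (Cytip) and 0 of 9 macrophage markers were below 0. Cytip held 120.2 of the 134.9 CPM of the leukocyte sum in WT 2. It stood at 70.2 and 23.15 CPM in HET and 18.7 CPM in WT 1. Each other leukocyte marker was lowest in WT 2. Ptprc, for instance, was at 73.4 and 66.1 CPM in HET, 62.1 in WT 1 and 2.85 in WT 2. Endothelial markers summed to 327.2 and 537.9 CPM in HET and 374 and 72.6 CPM in WT. Of 8 endothelial markers 0 were below 0, and Cldn5 was at 0 in WT 2. Fibroblast and epithelial sums thus separated the genotypes in the direction of the small nucleolar RNAs. Among fibroblast markers, Dcn and Lum overlapped, each marker was highest in WT 2, and those other than Dcn and Lum separated in that direction. Among epithelial markers, however, only Epcam did so, at 768.6 and 613.4 CPM in HET and 1040 and 1288 CPM in WT. Krt19 separated in the other direction, at 53.9 and 80.2 CPM in HET and 47.5 and 44.3 CPM in WT, and the rest overlapped. Leukocyte, macrophage and endothelial sums set WT 2 apart as the lowest library, and the fibroblast sum set it apart as the highest. Their part in the difference of the small nucleolar RNAs was not tested.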

How the data were processed

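RNA of 4 sorted tumour samples was sequenced, and the authors deposited 1 table of estimated counts per gene. The submitters' processing notes name Salmon and the build GRCm38.p5. Software version, transcript annotation, strandedness, size selection and any removal of ribosomal RNA were not given in the sources used. Of 51826 rows, 51633 matched GENCODE M21, all 140 members with the same identifier version, 0 rows named no gene and 0 columns were left out. Counts (whole numbers as deposited) were fitted in edgeR 4.0.16 (R 4.3.3) with filterByExpr (10 counts), TMM scaling, genotype as the only term and Benjamini-Hochberg adjustment over all 21607 genes tested. The common biological coefficient of variation was 0.46. Near copies were found with blastn 2.17.0, and pairs were aligned with Biopython 1.88. A count of 0 allows up to 3 counts, or 0.195 to 0.239 CPM, which covers counting error only. Alternatives were other scalings and filters, DESeq2 1.42.0, limma-voom (limma 3.58.1), identical rows counted once and leaving out each library.

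The members, lists and rules were chosen with earlier results of these data known. Named members were the 8 Snord and 6 Snora of highest level per kilobase, up to 10 per direction of smallest p with groups that do not overlap and a mean log2 CPM of at least 1, Snord33, Snord15a and Snord15b, and the members in Gas5, Snhg1 and Rian and of Snord116. No member met the rule in the higher direction. Snord12, Snord13, Snord35a, Snord100, Snord118, Snora16a, Snora33, Snora62, the Snord14 family and the 5 members above both WT libraries were named after their values were seen. The summed level of erythroid markers is not reported here.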

Additional observations from a re-analysis of the deposited data

How the results depend on the processing

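The summed level of the class was lower in HET with TMM, total counts and protein-coding library sizes. It was also lower with identical rows counted once and without each library in turn. The log2 ratios of HET to WT were -1.96 to -1.51. The direction of each of the 18 named members held in all 252 values under the alternatives. Some of these members were chosen for a small p in the lower direction with groups that do not overlap. For such members the direction was largely fixed by that choice, so its holding is not a separate check. The counts of calls varied. For the unfiltered fit, limma-voom and the filter on the mean, the share of all genes at an unadjusted p is not given here. Nor is it given without HET 1, HET 2 or WT 1, so those counts of members cannot be set against all genes. With no filter beyond 1 count edgeR passed 324 genes and 14 members (all lower; 0.443% of all rows were lower), with 41 members lower and 1 higher at an unadjusted p under 0.05. DESeq2 passed 134 genes and 9 members. Limma-voom put 13 members lower at an unadjusted p under 0.05, and restriction to members with no near copy, chosen after seeing the data, left 11 of 23. Leaving out single libraries gave 0 to 657 genes passing and 0 to 13 members passing, with 11 to 30 members lower and 0 to 1 higher at an unadjusted p under 0.05. The 657 genes and 13 members passed without WT 1, and the 11 lower members came without HET 1. Medians of the members lay between -2.35 (without WT 1) and -1.24 (without WT 2), and median differences from the host between -2.41 and -1.07. Without WT 2, 9 genes passed, with 15 members lower (2.47% of all genes) and 1 higher, Snord37, which has no count in WT 1. A filter on the mean over all libraries, also chosen after seeing the data, gave 24 of 55 lower. The median of all genes was 0.04 with TMM, 0.22 with total counts and 0.12 with upper-quartile scaling, and the median of the members -1.81 and -1.90 under the last 2. Causes were not tested. Most members had under 100 counts per library, which limits single values. No paired analysis was possible because the titles share fewer than 2 tumour numbers between HET and WT.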
